A study of Mus musculus and Homo sapiens with 22 samples.

Results

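The canonical Wnt pathway was examined through 10 mouse genes, chosen by name, out of the 56196 genes listed in the count files. They are the DNA-binding factors Lef1, Tcf7, Tcf7l1 and Tcf7l2, their coactivator Ctnnb1 (beta-catenin), and the target genes Axin2, Nkd1, Sp5, Rnf43 and Znrf3. RNA counts came from mouse embryonic stem cells (mESCs), either wild-type (WT) or knocked out for Mettl3 (KO), and N6-methyladenosine (m6A) sites from WT mESCs and mouse heart. When no Wnt ligand is bound, a cytoplasmic complex built on Axin marks beta-catenin for degradation, and TCF/LEF factors sit on their targets with corepressors. Ligand binding to Frizzled receptors lets beta-catenin accumulate, join the TCF/LEF factors and switch on the targets, several of which feed back to restrain the pathway. In mESCs, Wnt signalling sustains self-renewal, and Tcf7l1 is known there mainly as a repressor of pluripotency genes.

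The RNA-seq comparison set 3 WT libraries against 3 KO libraries of mESCs. Both genotypes came from an earlier publication and were grown in medium with serum and LIF, a cytokine that maintains stem cells. Mettl3 is the catalytic subunit of the main mRNA m6A methyltransferase, and the KO cells served the study to calibrate m6A detection. The number of clones behind each genotype is not given in the sources used here, so the effect of the deletion and other differences between the lines cannot be told apart. The m6A sites came from miCLIP2, in which an m6A antibody crosslinked to RNA leaves stops in reverse transcription, followed by m6Aboost, a classifier that scores peaks at an A. One list covers WT mESCs with all replicates merged. The others cover purchased mouse heart poly(A)+ RNA, 1 library each, from 1 µg and from 300, 100 and 50 ng. The site lists give no read depth and no value per replicate.

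The 6 libraries held 22746733 to 27254245 reads assigned to genes. The labels number the RNA-seq replicates without saying whether they came from separate cultures. The study calls the miCLIP2 replicates of these cells biological and the RNA-seq matching. Every p-value below measures the spread between these libraries. The libraries numbered 2 of both groups stood apart, in that their 10 most abundant genes took 16.1% (WT) and 18.0% (KO) of gene counts, against 23.1 to 25.5% in the others. In bulk RNA, fewer cells of a type and less RNA per cell cannot be told apart. Mettl3 itself was counted 560, 698 and 612 times in the WT libraries and 462, 669 and 457 times in the KO libraries. As CPM, the counts scaled to a common library size with TMM factors, that is 27.3 ± 1.39 against 19.3 ± 2.95 (SD, n = 3), a log2 fold change of -0.50 ± 0.14 (SE). Its p, adjusted by Benjamini-Hochberg after the quasi-likelihood test of edgeR, was 0.0134, short of the 0.01 used throughout, and 0.00281 with the replicate number as a block. The deleted part of the gene is not given in the sources used here, so this count does not test the label.

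Of the 10 genes, all of which passed the filter on low counts, 3 reached an adjusted p of 0.01 or less and were called. Lef1 fell, and Sp5 and Znrf3 rose. That is 30.0% of the 10, beside 29.7% of the 15731 genes tested, of which 17.1% were higher and 12.6% lower in KO. The median log2 fold change of the 10 genes was -0.01, and that of all genes tested was -0.02. CPM did not overlap between KO and WT for 4 of the 10 (Lef1, Tcf7, Sp5 and Znrf3), beside 56.1% of all genes tested. Numbers of calls and of separated ranges among these genes were thus near the background. Sp5, with 9, 4 and 5 counts in WT, passed the filter on low counts only through its KO libraries. Wnt5a, Wnt10b, Sfrp5, Foxa2, Olig1 and Olig2, named below, did so too. A gene that enters this way was tested because its KO counts were high, so its rise is not independent of the filter. With the replicate number as a block, 5 of the 10 were called (Tcf7 and Tcf7l2 in addition), beside 43.5% of all genes. Without both libraries numbered 2, 2 of the 10 were called, Lef1 and Sp5.

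**Figure D1:**
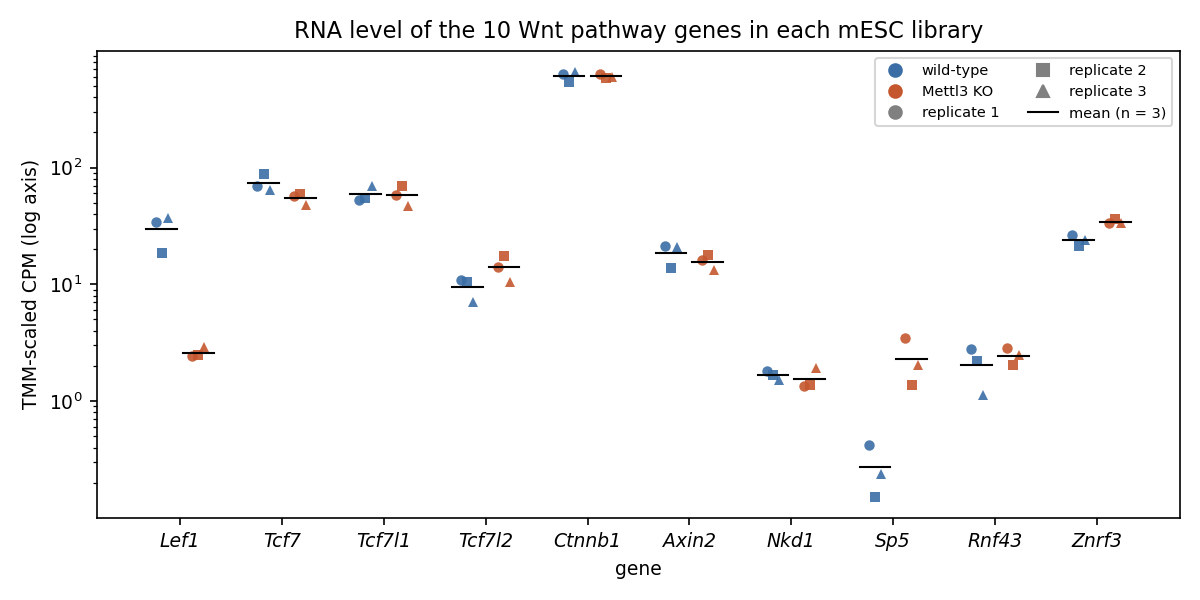
RNA level of each gene in each mESC library, as TMM-scaled CPM on a log axis, with WT in blue, KO in orange, a marker shape per replicate number and a bar at the mean of 3 libraries. The KO libraries of Lef1 lie between 2.43 and 2.88 CPM, far under the lowest WT library at 18.7, and those of Sp5 lie above all WT libraries.

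Lef1 (ENSMUSG00000027985.14, GRCm38 chromosome 3, 131110471 to 131224356, plus strand) encodes an HMG-box factor that mostly activates targets together with beta-catenin. The 3 WT libraries counted it 723, 490 and 781 times, and the 3 KO libraries 61, 74 and 78 times. In CPM these are 34.1, 18.7 and 36.9 in WT and 2.43, 2.50 and 2.88 in KO. WT replicate 2 was the lowest of its group, and even it stood well apart from the KO libraries, which lay close together. Mean levels of 29.9 ± 9.83 and 2.60 ± 0.244 CPM differ 11.5-fold. Lef1 fell by 3.52 ± 0.26 on the log2 scale (95% interval -4.10 to -2.94, adjusted p = 1.16e-05, edgeR's quasi-likelihood test), the largest change in size among the 10 genes. It was called in all 13 alternative fits that were run.

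Tcf7 (TCF1) encodes a factor with activating long forms and short forms that lack the beta-catenin binding domain. The gene lies on chromosome 11, 52252371 to 52283014, minus strand. WT libraries had 70.0, 87.3 and 64.5 CPM, and KO libraries had 57.2, 59.8 and 47.9. Every KO library was below every WT library, by a narrow margin. Means were 73.9 ± 11.9 and 55.0 ± 6.26 CPM, with a log2 fold change of -0.43 ± 0.14 and an adjusted p of 0.0275, which missed the threshold. With the replicate block the value was -0.42 ± 0.10 and the adjusted p 0.00176, and over all alternatives the adjusted p ran from 0.00176 to 0.154.

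Tcf7l1 (TCF3), on chromosome 6 from 72626378 to 72789254 on the minus strand, had 52.9, 54.3 and 69.7 CPM in WT and 58.2, 69.2 and 46.7 in KO. The groups overlapped. The log2 fold change was -0.02 ± 0.16 (95% interval -0.38 to 0.33, adjusted p = 0.920), and its sign turned under 5 of the 13 alternatives. The interval leaves room for a moderate change either way.

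Tcf7l2 (TCF4) encodes the factor best known from the intestinal epithelium and lies on chromosome 19, 55741820 to 55933654, plus strand. WT libraries had 10.8, 10.5 and 7.04 CPM and KO libraries 14.2, 17.4 and 10.4. The lowest KO library lay inside the WT range, while each KO library was above the WT library of the same number. The log2 fold change was 0.56 ± 0.23, with an adjusted p of 0.0640. With the replicate block it was 0.56 ± 0.15 and the adjusted p was 0.00418, and the adjusted p over all alternatives ran from 0.00418 to 0.228.

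**Figure D2:**
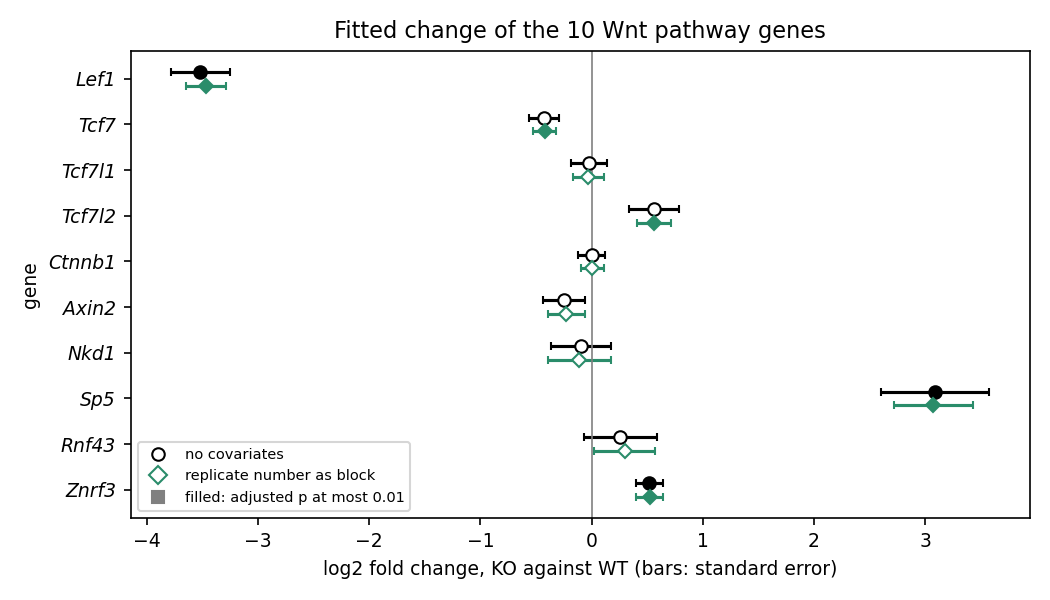
Fitted log2 fold change of each gene, KO against WT, with bars of 1 standard error, without covariates (circles) and with the replicate number as a block (diamonds). Filled symbols mark an adjusted p of at most 0.01: Lef1, Sp5 and Znrf3 are filled in both fits (-3.52, 3.09 and 0.52 without covariates), and Tcf7 and Tcf7l2 in the blocked fit only.

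To set the factors beside each other, CPM was divided by the summed length of all annotated exons of each gene in kilobases, and each factor was expressed as a share of the 4-gene sum. Tcf7 held 58.9 ± 7.04% of this sum in WT and 55.9 ± 2.20% in KO (SD, n = 3), with overlapping ranges. Tcf7l1 held 29.8, 27.4 and 37.5% in the WT libraries and 38.5, 41.3 and 37.6% in the KO libraries, so that the highest WT library nearly reached the lowest KO library. Lef1 made up 8.58, 4.21 and 8.87% in WT and 0.717, 0.666 and 1.04% in KO. Tcf7l2 made up 2.72, 2.38 and 1.69% in WT and 4.20, 4.63 and 3.74% in KO. Thus Lef1 outranked Tcf7l2 in each WT library, and Tcf7l2 outranked Lef1 in each KO library. The summed level was 47.7 ± 2.61 CPM per kb in WT and 37.6 ± 5.56 in KO, with ranges that did not overlap. With the length of the longest coding transcript instead, Tcf7l1 had a higher mean share than Tcf7. The shares were 43.1 against 41.5% in WT and 53.3 against 38.9% in KO. In WT this came from replicate 3 (48.9 against 34.6%), with overlapping ranges. Tcf7 was the higher in WT replicates 1 (41.0 against 40.6%) and 2 (48.9 against 39.8%). In KO every library changed order, so the order of these factors there depends on the gene model.

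**Figure D3:**
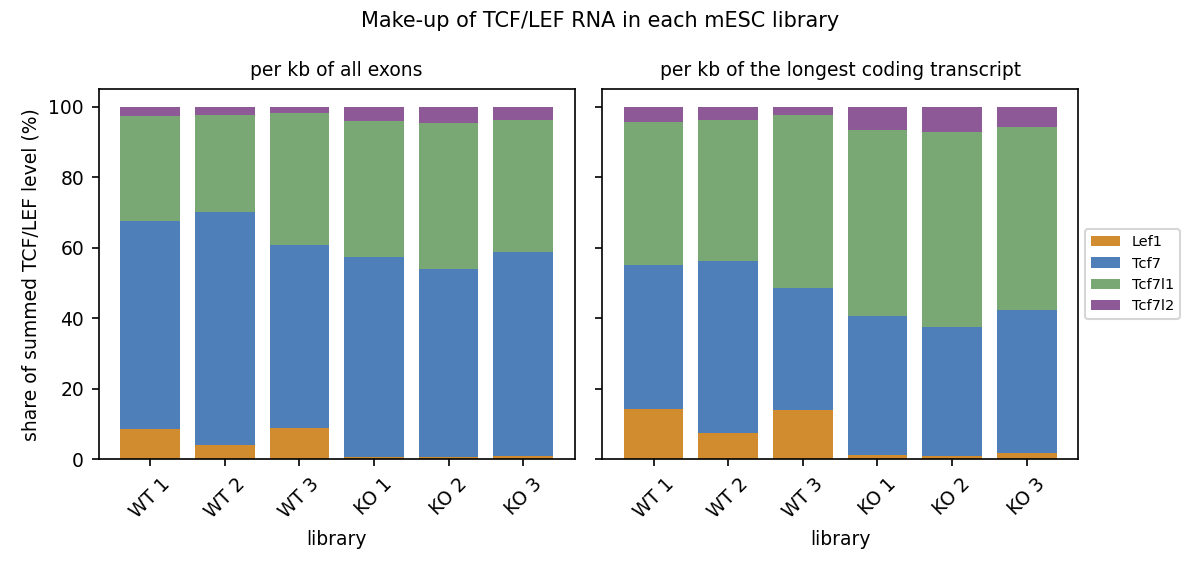
Share of each TCF/LEF factor in the summed level per kilobase (%), stacked for each mESC library, with the length of all exons on the left and of the longest coding transcript on the right. Lef1 (orange) shrinks from between 4.21 and 8.87% in WT to at most 1.04% in KO on the left. Tcf7 and Tcf7l1 change places between the panels in the KO libraries and WT replicate 3, but not in WT replicates 1 and 2.

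Lef1, Tcf7 and Tcf7l2 carried listed m6A sites in at least 1 tissue. The 21-nt windows below are centred on sites, read from the GRCm38 genome on the transcribed strand with T for U, and the capitals mark the pentamer around the site at its central A. The first set shows all Lef1 sites of mESCs, and the second set the Tcf7 sites found in both tissues.
Lef1 coding, chr3:131111503-131111523, plus strand: gggacccgGAACTctgcgcca
Lef1 3' UTR, chr3:131223154-131223174, plus strand: gaaaccccAGACTgtctccac
Lef1 3' UTR, chr3:131223334-131223354, plus strand: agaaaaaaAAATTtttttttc
Tcf7 3' UTR, chr11:52253845-52253865, minus strand: gctccccaGGACTcaccctcg
Tcf7 3' UTR, chr11:52253805-52253825, minus strand: tccccacaGAACTgcttgcta
Tcf7 3' UTR, chr11:52253667-52253687, minus strand: aatctcagAGACAggcagcct
Tcf7 3' UTR, chr11:52253349-52253369, minus strand: gatgggttGGACTgatctctt

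DRACH is the consensus of the m6A methyltransferase (A, G or T, then A or G, then the methylated A, then C, then A, C or T). Lef1, whose RNA fell most in KO, had 3 listed sites in WT mESCs and none in any heart list. One lay in the coding part of exon 1 of 12, and 2 lay in the last exon, 95 and 275 nt past the stop codon, the last of them at AAATT and so outside DRACH. Their m6Aboost scores were 0.694, 0.776 and 0.724, and the median over the 25456 mESC sites was 0.745.

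Tcf7 had 4 mESC sites, all in the 3' UTR within its last exon, at 28, 68, 206 and 524 nt past the stop codon. All 4 recurred at the same position in the heart 1 µg list, and the one at 206 nt also in the 300 ng list. Heart had 1 further site, in the coding part of exon 2. The mESC site at 524 nt had the highest score of all sites in the 10 genes, 0.882.

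Tcf7l2 had no mESC site, and 2 heart sites in its last exon, one coding and one 947 nt past the stop codon, both with low scores for that list (1.77 and 1.14, against a median of 11.7). Its WT mESC level of 9.45 ± 2.09 CPM fell in the second quartile of genes tested, where 22.4% of genes had a listed site.

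Tcf7l1 had no site in any list. Its WT level of 59.0 ± 9.36 CPM was in the top quartile, where 80.5% of genes had at least 1 mESC site. Its longest coding transcript holds 18 DRACH motifs, the fewest among the 10 genes, with only 88 nt of 3' UTR, while all its annotated exons together hold 56. A gene without a listed site is not shown to lack m6A.

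**Figure D4:**
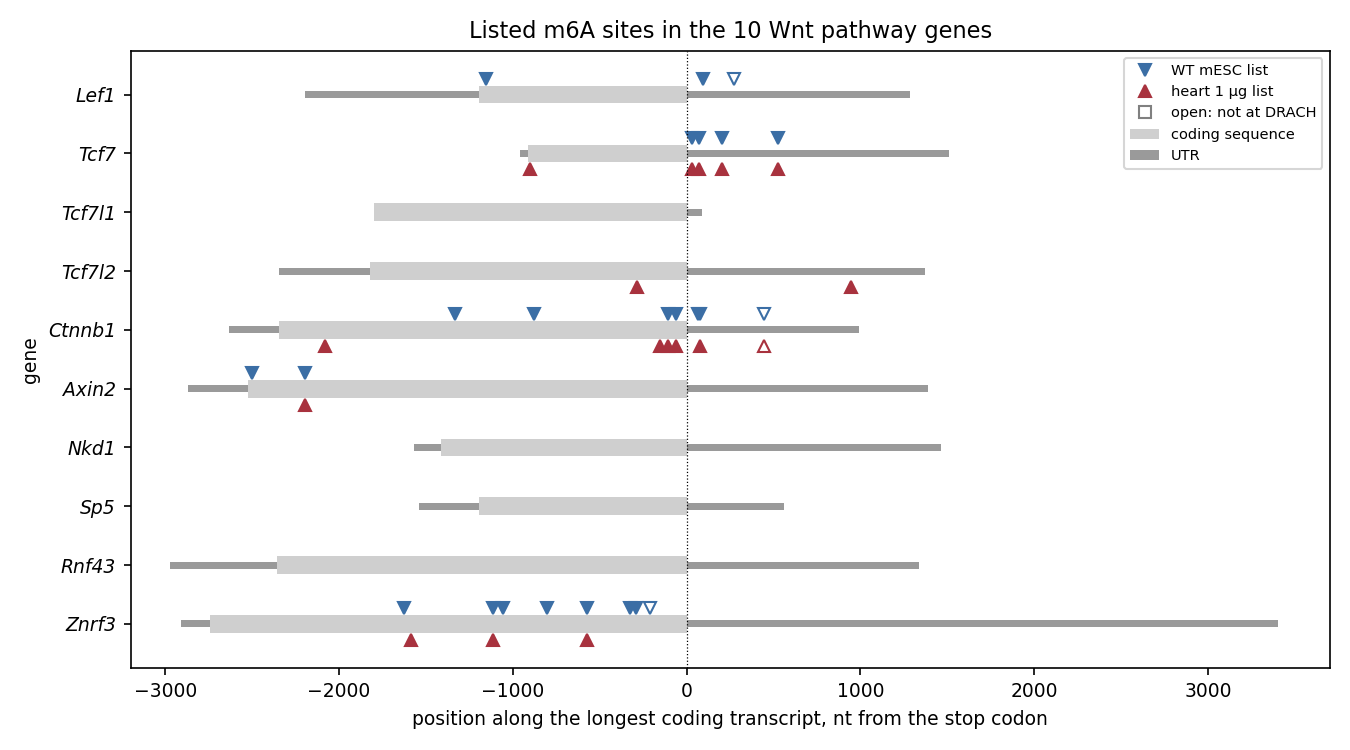
Listed m6A sites of the 10 genes along the longest coding transcript, in nt from the stop codon, with coding sequence as thick and UTRs as thin bars, mESC sites above in blue and heart 1 µg sites below in red. Open symbols lie outside DRACH. The Tcf7 sites of mESCs stand just past the stop codon, between 28 and 524 nt, whereas all 8 mESC sites of Znrf3 stand before it.

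Ctnnb1 encodes beta-catenin, which serves both as the transcriptional partner of the TCF/LEF factors and as a linker of cadherins to the cytoskeleton. The gene (chromosome 9, 120929216 to 120960507, plus strand) was the highest of the 10 per kilobase in both groups. WT libraries had 626, 535 and 657 CPM and KO libraries 633, 584 and 601. All KO libraries lay within the WT range. Means were 606.3 ± 63.6 and 606.3 ± 24.9 CPM, and the log2 fold change was 0.00 ± 0.12 (95% interval -0.26 to 0.26, adjusted p = 0.999). The interval bounds a change in Ctnnb1 RNA more tightly than for any other of the 10 genes, and it says nothing of beta-catenin protein.

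Ctnnb1 carried 7 mESC sites and 6 sites in heart at 1 µg, of which 4 were at the same positions. The last of 15 exons held 5 of the 7 mESC sites. The windows of the 4 shared sites are shown because one of them departs from DRACH in both tissues.
Ctnnb1 coding, chr9:120959401-120959421, plus strand: cctggtgcTGACTatccagtt
Ctnnb1 coding, chr9:120959443-120959463, plus strand: cacgcccaGGACCtcatggat
Ctnnb1 3' UTR, chr9:120959584-120959604, plus strand: ctccagaaAGACTtggtaggg
Ctnnb1 3' UTR, chr9:120959952-120959972, plus strand: atacaaatGGATTtggggagt

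The site at GGATT, 445 nt past the stop codon, was listed in mESCs (score 0.751), in heart at 1 µg (score 125, at the 95.8th percentile of that list) and again at 300 ng. In heart the highest-scoring Ctnnb1 site was the AGACT 77 nt past the stop codon, with 146. The scale of the heart scores is not stated, and they rank sites within a list only. The 300 ng list held 4 Ctnnb1 sites and 1 Tcf7 site, all of them also in mESCs. One, at GAACT 66 nt past the stop codon of Ctnnb1, was not in the 1 µg list. The 100 and 50 ng lists held no site of the 10 genes, in lists that shrank from 46421 sites at 1 µg to 8845, 1112 and 248.

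The targets Axin2 and Nkd1 showed no called change. Axin2, a scaffold of the complex that degrades beta-catenin and a widely used readout of the pathway, had 21.3, 13.7 and 20.8 CPM in WT and 16.0, 17.7 and 13.3 in KO. The groups overlapped. The log2 fold change was -0.24 ± 0.19 (95% interval -0.66 to 0.18, adjusted p = 0.313). Over the 13 alternatives it ran from -0.54 to -0.12 and the adjusted p from 0.0350 to 0.654, with no call. The lowest values of both came from the edgeR fit without both libraries numbered 2. Nkd1, which binds Dishevelled and restrains the signal, was counted 38, 44 and 32 times in the WT libraries and 34, 41 and 52 times in the KO libraries. Its log2 fold change was -0.10 ± 0.27 (95% interval -0.70 to 0.50, adjusted p = 0.790), on few counts. Nkd1 lies on chromosome 8, where 73.1% of the 829 genes tested were lower in KO, with a median of -0.44 on that scale; the part of this in the Nkd1 value was not tested.

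Sp5 encodes a zinc-finger factor that is a direct Wnt target and is known to damp other targets. It lies on chromosome 2, 70474923 to 70477729, plus strand. The WT libraries held 9, 4 and 5 counts, and the KO libraries 88, 41 and 55. All KO libraries stood above all WT libraries, and KO replicate 1 was the highest. Means of 0.271 ± 0.140 and 2.31 ± 1.09 CPM differ 8.50-fold, the log2 fold change was 3.09 ± 0.48 (95% interval 2.02 to 4.16), and the adjusted p was 6.36e-04. Sp5 was called in all 12 alternatives that tested it; with at least 10 counts required in every library it was not tested. Per kilobase of all exons, Sp5 thus had the lowest level of the 10 genes in WT, 0.129 ± 0.0665. In KO it was seventh at 1.10 ± 0.517, and Lef1 was lowest at 0.296 ± 0.0278. With the length of the longest coding transcript, Lef1 (0.747 ± 0.0702) lay above Rnf43 (0.570 ± 0.0976) and Nkd1 (0.512 ± 0.105) in KO.

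Znrf3 and Rnf43 encode transmembrane ubiquitin ligases that clear Frizzled receptors from the cell surface. Znrf3 (chromosome 11, 5276324 to 5444847, minus strand) had 26.6, 21.3 and 23.9 CPM in WT and 33.6, 35.9 and 33.2 in KO. Every KO library was above every WT library. The rise was 0.52 ± 0.12 on the log2 scale, or 1.43-fold (95% interval 0.25 to 0.79, adjusted p = 0.00600). The call was lost, with adjusted p between 0.0181 and 0.0242, when KO replicate 1, 2 or 3 or WT replicate 2 was left out, while the fitted change stayed between 0.43 and 0.55. For Rnf43, the WT libraries held 59, 58 and 24 counts, and the KO libraries 72, 60 and 67. WT replicate 3 was the low one, and the ranges of CPM overlapped. The log2 fold change was 0.26 ± 0.33 (95% interval -0.47 to 0.99, adjusted p = 0.541).

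Znrf3 had the most mESC sites of the 10 genes, 8, a number reached or passed by 5.25% of genes tested. Its longest coding transcript also holds the most DRACH motifs, 126, beside a median of 59 over tested genes. Per 100 motifs it had 6.35 mESC sites, fewer than Ctnnb1 (9.09) and Tcf7 (6.90). The quartiles over genes with sites were 2.40 and 8.06. All 8 Znrf3 sites, and the 3 of this gene in heart, lay in exon 8 of 9, which has 1698 nt and 37 DRACH motifs. The last exon, with a 3' UTR of 3400 nt and 75 DRACH motifs, had no listed site. Among all mESC sites placed on a coding transcript, 68.6% lay in the last exon. Axin2 resembled Znrf3 in this, with its 2 mESC sites in exon 2 of 11 and none in the last exon, which holds 31 DRACH motifs. The windows show the sites of Znrf3 and Axin2 shared with heart, and the Znrf3 site outside DRACH.
Znrf3 exon 8, chr11:5281877-5281897, minus strand: tacctggcTGACTgtcctggc
Znrf3 exon 8, chr11:5281334-5281354, minus strand: ctcctcgaGGACTgcaaccct
Znrf3 exon 8, chr11:5280974-5280994, minus strand: ctgagcttGGACGttccccga
Axin2 exon 2, chr11:108923603-108923623, plus strand: gatacgctGGACTtctggttt

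Sp5, Rnf43 and Nkd1 had no listed site in mESCs or heart. All 3 were in the lowest quartile of WT level, where 0.966% of tested genes had a site.

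Across the 10 genes, 24 mESC sites fell in 5 genes (Lef1, Tcf7, Ctnnb1, Axin2 and Znrf3), and 17 heart sites at 1 µg fell in 5 (Tcf7, Tcf7l2, Ctnnb1, Axin2 and Znrf3). Among the genes tested, 42.0% had an mESC site and 50.2% a heart site, so 5 of 10 is near that background in both. No site of the 10 genes lay in an intron. Of the mESC sites, 15 were coding and 9 in a 3' UTR, and of the heart sites 10 and 7. At the same position and strand, 11 sites were in both lists, 45.8% of the mESC sites and 64.7% of the heart sites of these genes, beside 59.6% and 32.7% over all sites. The counts give no heart RNA levels, so absence from the heart list cannot be told apart from low expression there. In mESCs, 21 of the 24 sites matched DRACH (87.5%, with a 95% Wilson interval from 69.0 to 95.7), and in heart 16 of the 17 (94.1%, from 73.0 to 99.0). Over all listed sites the shares were 92.9% and 93.1%. Intervals cover counting error only.

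Of the 5 genes with mESC sites, Lef1 fell, Znrf3 rose and Tcf7, Ctnnb1 and Axin2 were not called. Of the 5 without, Sp5 rose and Tcf7l1, Tcf7l2, Nkd1 and Rnf43 were not called. Over all genes tested, 31.7% of the 6607 with a site were called, 17.3% higher and 14.4% lower, and 28.2% of the 9124 without, 16.9% higher and 11.3% lower.

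Per kilobase of all exons, the order of WT levels was Ctnnb1 (117 ± 12.2 CPM per kb), Tcf7 (28.2 ± 4.54), Tcf7l1 (15.0 ± 2.38), Lef1 (3.40 ± 1.12), Axin2 (3.38 ± 0.770), Znrf3 (3.03 ± 0.335), Tcf7l2 (1.08 ± 0.239), Nkd1 (0.364 ± 0.0310), Rnf43 (0.311 ± 0.128) and Sp5. Ranges overlapped between the neighbours Lef1 and Axin2, Axin2 and Znrf3, Nkd1 and Rnf43, and Rnf43 and Sp5. In KO, Znrf3 followed Tcf7l1 at 4.34 ± 0.185, above Axin2 at 2.85 ± 0.398, and ranges overlapped between Tcf7l2 and Sp5, Rnf43 and Nkd1, and Nkd1 and Lef1.

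The rest of the pathway was read from lists of 102 other genes, of which 76 were tested and 24 called, 19 higher and 5 lower in KO. That is 31.6% of those tested, beside 29.7% of all genes, and the median log2 fold change was 0.13. With the replicate number as a block, 30 were called, 22 higher and 8 lower, beside 43.5% of all genes. The 6 added by the block were Wnt10b, Cdh2 and Esrrb, higher in KO, and Lrp5, Dvl2 and Notum, lower. Leaving out 1 library at a time gave 17 to 33 calls. Lower calls, 5 with all libraries, numbered 1 without KO replicate 1 (of 17 calls), 2 without KO replicate 3 (of 19), 3 without WT replicate 1 (of 17) and 7 without WT replicate 3 (of 33). Without both libraries numbered 2, 19 were called, 14 higher and 5 lower. By the naming rule, up to 3 genes of a list with the largest change are named as changed where they were called, had ranges that did not overlap and averaged at least 50 counts. All other genes named from the lists, called or not, were chosen after their values were seen. Counts of a list are descriptions, with no test of the list.

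Of the Wnt ligands and secretion genes, 3 of 10 tested rose and none fell, which is 30.0% called beside 29.7% of all genes. Wnt7b went from 1.16 ± 0.475 to 6.55 ± 1.39 CPM (log2 fold change 2.48 ± 0.33, adjusted p = 2.47e-04). Wls, the carrier that brings Wnt ligands to the cell surface, went from 17.5 ± 3.40 to 36.6 ± 3.55 CPM. The other was Wnt5a, a ligand known mostly for signalling without beta-catenin, at 0.123 ± 0.0940 CPM in WT and 2.15 ± 0.538 in KO. Wnt10b was called in addition with the replicate block (adjusted p = 0.00249).

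Of the receptors and R-spondin genes, 6 of 14 tested rose and none fell, which is 42.9% called beside 29.7% of all genes (17.1% higher). The list's median log2 fold change was 0.55, beside -0.02 over all genes. Of the 14, 9 were Frizzled receptors, and the 6 called genes were among them. Fzd1 rose from 0.700 ± 0.201 to 5.07 ± 0.384 CPM (log2 fold change 2.86 ± 0.28, adjusted p = 5.00e-05), Fzd2 by 2.28 ± 0.28 and Fzd8 by 1.36 ± 0.23 on that scale. Fzd3, Fzd4 and Fzd9 were the others. Fzd5 had 97.5 ± 16.3 CPM in WT and 91.0 ± 7.15 in KO and was not called (adjusted p = 0.557), nor were Fzd7 (57.7 ± 12.8 and 68.5 ± 14.9 CPM, adjusted p = 0.312) and Fzd10 (25.2 ± 2.73 and 24.0 ± 3.87, adjusted p = 0.733). Both coreceptors were likewise not called. Lrp6 had 166 ± 5.72 and 171 ± 14.5 CPM. Lrp5 had 105 ± 22.5 CPM in WT and 65.7 ± 13.6 in KO, with ranges that did not overlap, a log2 fold change of -0.68 ± 0.18 and an adjusted p of 0.0109 that just missed the threshold. With the replicate block its adjusted p was 1.33e-05.

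**Figure D5:**
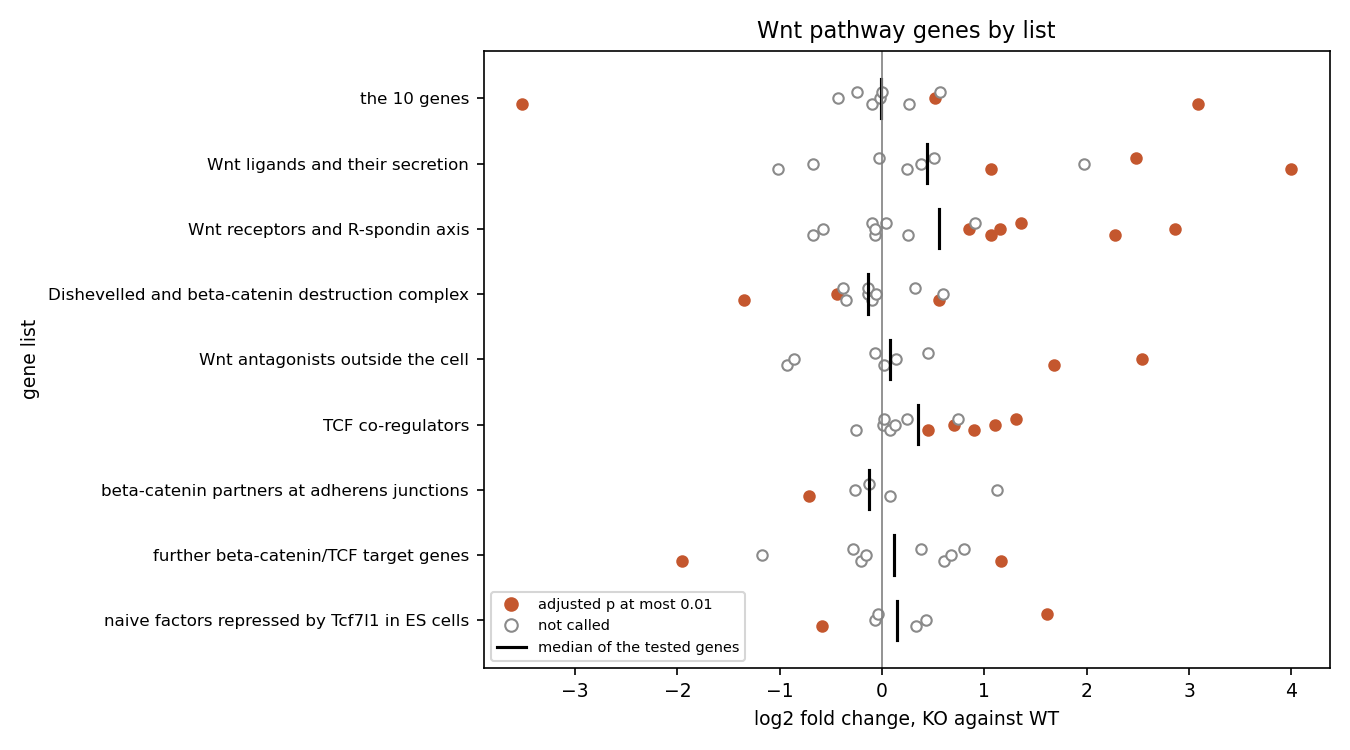
Log2 fold change, KO against WT, of every tested gene of the 10 and of 8 lists of other Wnt pathway genes, with called genes in orange and a bar at each list's median. Called Frizzled and co-regulator genes all lie above 0, while the 10 genes spread to both sides, from -3.52 for Lef1 to 3.09 for Sp5.

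Among the 12 co-regulators of TCF, 5 rose and none fell, which is 41.7% called beside 29.7% of all genes (17.1% higher). The median log2 fold change was 0.35. Pygo1 and Bcl9l, which link beta-catenin to the transcription machinery, rose by 1.31 ± 0.22 and 1.11 ± 0.23 on the log2 scale. Ctbp2, a corepressor, rose by 0.89 ± 0.18, from 87.0 ± 24.0 to 162 ± 21.2 CPM. Bcl9 and Nlk were the others.

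In the destruction complex and Dishevelled list, 1 of 11 rose and 2 fell, which is 27.3% called beside 29.7% of all genes. Axin1, like Axin2 a scaffold of this complex, rose from 75.6 ± 5.15 to 111 ± 7.29 CPM (log2 fold change 0.56 ± 0.10, adjusted p = 0.00175). Amer1 fell from 20.0 ± 3.76 to 7.83 ± 1.69 CPM and Gsk3a, a kinase that phosphorylates beta-catenin, from 79.4 ± 1.83 to 58.5 ± 3.48. Of 8 extracellular antagonists tested, 2 rose (25.0%), Dkk3 (3.54 ± 1.68 to 11.5 ± 1.48 CPM) and Sfrp5. At adherens junctions, Jup (plakoglobin, a close relative of beta-catenin) was the 1 of 5 tested to be called (20.0%), and fell from 84.3 ± 17.0 to 51.4 ± 5.99 CPM. With the replicate block, Dvl2 (adjusted p = 0.00262) and Notum (0.00259), both lower in KO, and Cdh2 (0.00494), higher, were called in these lists in addition.

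Further targets did not move one way. Of 10 tested, Ccnd1 (cyclin D1) rose from 33.8 ± 13.3 to 75.3 ± 2.09 CPM, Bmp4 fell from 6.03 ± 3.37 to 1.55 ± 0.313, and 8 were not called. That is 20.0% called beside 29.7% of all genes. Of the 6 naive factors known to be repressed by Tcf7l1, Klf2 rose from 103 ± 5.57 to 315 ± 40.4 CPM (log2 fold change 1.61 ± 0.12, adjusted p = 1.24e-05) and Tfcp2l1 fell from 892 ± 111 to 595 ± 52.3. These 2 calls are 33.3% of that list. Esrrb had 527 ± 36.3 CPM in WT and 709 ± 29.1 in KO, with ranges that did not overlap, a log2 fold change of 0.43 ± 0.11 and an adjusted p of 0.0106 that just missed the threshold. With the replicate block its adjusted p was 0.00191. Nanog, Nr5a2 and Tbx3 were not called in either fit.

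The 5 genes whose log2 CPM over the 6 libraries was most like that of Lef1 were Elavl1 (Pearson's r = 0.999), Rprl3 (0.999), Sf3b3 (0.998), Fam78a (0.997) and Pcm1 (0.997). These correlations are a description over 2 groups of libraries. Rprl3 had 1.04 ± 0.448 CPM in WT and 0 in KO. It passed the filter on low counts only through its WT libraries, so its likeness to Lef1 is not independent of the filter. Elavl1, Rprl3, Sf3b3 and Pcm1 lie on chromosome 8, whose genes were mostly lower in KO, and Lef1 lies on chromosome 3.

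Markers of cell state differed between the groups. In the site lists, the stem cell genes Sox2 and Nanog had 15 and 7 sites in mESCs and none in heart at 1 µg, and the muscle genes Ttn and Ryr2 had 195 and 23 in heart and none in mESCs. Other markers had few sites or none in their own tissue. In mESCs, Pou5f1 had 1 and Dppa5a and Utf1 had 0. In heart at 1 µg, Tnnt2 had 2, Myh6 had 1 and Actc1 and Myl2 had 0. The summed level of 10 ES cell markers lay between 4387 and 4685 CPM in WT and between 3095 and 3147 in KO. Dppa5a, Utf1, Tdgf1 and Lin28a were lower and Sall4 higher, and Pou5f1, Sox2, Nanog, Zfp42 and Fgf4 were not called. The largest drops in CPM were those of Dppa5a (957 ± 163 to 298 ± 14.8) and Tdgf1 (903 ± 173 to 229 ± 41.1). Primitive endoderm markers summed to between 7.18 and 9.87 CPM in WT and between 34.2 and 47.2 in KO. That difference was Dab2, which rose from 1.04 ± 0.0484 to 34.6 ± 6.35 CPM, since the other 6 markers summed to between 6.10 and 8.83 CPM in WT and between 5.84 and 6.97 in KO. Of the 5 tested, Foxa2 was also higher, and Gata4 was lower (4.24 ± 1.13 to 1.40 ± 0.429 CPM). Neural markers summed to between 37.3 and 53.3 in WT and between 52.3 and 58.3 in KO, with 2 of 4 tested higher, Olig1 and Olig2. The other 2 tested were not called and had lower means in KO. Nes, the most abundant in WT, went from 43.3 ± 8.17 to 33.4 ± 3.09 CPM, and Sox1 from 1.91 ± 0.0571 to 1.28 ± 0.588. Primitive streak markers, which include Wnt targets, summed to between 15.5 and 20.5 in WT and between 14.4 and 17.1 in KO, and none of 4 tested was called. Feeder fibroblast markers summed to between 9.45 and 13.2 CPM in WT and between 10.6 and 11.8 in KO, with Postn at 0 in all WT libraries, and of 3 tested Thy1 was higher and Pdgfrb lower. Of the tested markers, 50.0% were called for ES cells, 60.0% for primitive endoderm and 50.0% for neural cells. The shares were 0% for primitive streak and 66.7% for feeder fibroblasts, beside 29.7% of all genes. The part of these marker differences in the changes of Lef1, Sp5 and Znrf3 was not tested.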

How the data were processed

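The 10 genes and all lists were chosen with earlier results of these data known. The gene counts were deposited by the authors, who mapped single-end reads to GRCm38.p6 with STAR and counted reverse-strand reads per GENCODE M23 gene with HTSeq 0.12.4. They are not normalised. The score deposited by the authors is, in mESCs, the m6Aboost prediction score, a fraction between 0 and 1, and of unstated scale in heart. The labels give heart inputs of 300, 100 and 50 in µg; file names and paper give ng, used here. Human sites were not used.

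Lines naming no gene (36.7 to 42.7%) were left out. Counts were fitted with edgeR 4.0.16 in R 4.3.3 (filterByExpr, TMM, quasi-likelihood test, no covariates), with Benjamini-Hochberg adjustment over 15731 genes and calls at 0.01. Alternatives were DESeq2 1.42.0, other scalings, filters and thresholds, a replicate block and leaving out libraries. Leaving out both libraries numbered 2 was chosen after seeing the data. Deviations from group means of same-numbered WT and KO libraries had r = 0.122, 0.464 and 0.303. Other pairings gave -0.342 to 0.110, the last for WT replicate 3 with KO replicate 1, so the pair numbered 1 hardly stood out. These values are tied together, since deviations cancel within a group. The numbers served as pairs in the replicate block only, and the main fit ignored them. The fit was tested on simulated counts in which far fewer genes changed, as many up as down. That does not test the scaling at the share of genes called here.

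Exons, lengths and symbols came from GENCODE M21 (55154 of 56196 genes matched). Sites were placed on exons of the same strand and on the longest coding transcript with Python 3.11.15, and windows were read from RefSeq's GRCm38.p6 genome. Pathway genes were named as stated in the text, and likeness used log2 CPM with a prior count of 2. Depth is unknown for the site lists.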

Additional observations from a re-analysis of the deposited data

How the results depend on the processing

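Lef1 and Sp5 kept their call in every alternative that tested them, and Znrf3 kept its call in 8 of 13; without WT replicate 2 and KO replicate 2 together its adjusted p was 0.0564 (log2 fold change 0.39; edgeR). The number of the 10 genes called was 5 with the replicate block and 3 in DESeq2; the block changed no other call of the 10 genes than those of Tcf7 and Tcf7l2. Tcf7 was also called without WT replicate 3 (adjusted p = 0.00828) and Tcf7l2 without a filter on low counts (0.00899). Over all genes, 4669 calls became 7336 at an adjusted p of 0.05, 3042 without both libraries numbered 2, and between 2761 and 5412 with 1 library left out. Using library size without TMM raised the median change over all genes by 0.10 (log2) and gave 71.0 instead of 57.5% of calls higher in KO. Signs turned only for values that were not called. Tcf7l1 was 0.0057 with at least 10 counts in every library, 0.094 with library size only, 0.013 without a filter, and between -0.24 and 0.12 with libraries left out. Ctnnb1 was -0.0087 in DESeq2 and -0.0088 with its size factors, and between -0.092 and 0.062 with libraries left out. Nkd1 was 0.0027 with library size only, and Rnf43 lay between -0.023 and 0.53 with libraries left out. The cause was not tested. In the upper part of the score column, 10 mESC and 10 heart sites were left. With the 300 ng heart list, 5 sites were shared with mESCs. With the longest coding transcript as length, shares in WT and KO were 11.9 and 1.34% for Lef1, 41.5 and 38.9% for Tcf7, 43.1 and 53.3% for Tcf7l1, and 3.55 and 6.48% for Tcf7l2. Low counts limit Sp5, Nkd1 and Rnf43, and the unknown depth of the site lists limits what a missing site shows.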
